A study of Mus musculus with 16 samples.

Results

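The genes described here carry the signals by which stromal cells feed macrophages and osteoclasts, together with the receptors and markers of those cells. They are 10 genes: the ligands Csf1, Il34 and Tnfsf11, the receptors Csf1r and Tnfrsf11a, the decoy receptor Tnfrsf11b, the transcription factor Nfatc1 and the osteoclast markers Ctsk, Acp5 and Dcstamp. They were listed by name from a table of 22180 genes, each read from the probe set that the platform annotation gives to that gene alone, and each of the 10 had 1 such probe set. Of the 10, 9 were among the 13453 genes bright enough to be tested, with a mean log2 value of at least 3.905, and Dcstamp was not.

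The study asked how thyroxine acts on cells from the coronal suture, the seam between skull bones that closes too early in mice and people with 1 working copy of Twist1. Total RNA of C57BL6 mouse cells was measured on 16 whole-transcript arrays, 1 for each combination of genotype (wild type or Twist1+/-), sex, medium (control DMEM proliferation medium or thyroxine at 10 to the power -6 mol/liter) and time (3 or 7 days). Cells came from 2 litters of mixed genotype and were kept apart by genotype and sex, which gives 4 cultures, each seen on 4 arrays. All cells, controls included, grew in DMEM with 10% FBS, and serum can itself carry hormone and growth factors. The labels name neither the age of the mice nor the part of Twist1 that the mutant allele lacks. The groups of genotype, medium and day thus had 2 arrays each, 1 from a female and 1 from a male culture. Because each genotype and sex had 1 culture, p-values measure at most the spread between arrays and between these cultures, not between animals. In the male minus female tests they measure the spread between arrays only, and sex and culture cannot be told apart.

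CSF1 and IL34 are secreted proteins that both bind the receptor CSF1R on cells of the macrophage lineage, where they keep the cells alive and dividing. RANKL, the product of Tnfsf11, is made by bone-forming and stromal cells and binds RANK, the product of Tnfrsf11a, on osteoclast precursors, where it switches on Nfatc1 and with it resorption genes such as Ctsk and Acp5. Osteoprotegerin, the product of Tnfrsf11b, is a secreted decoy that captures RANKL and so restrains osteoclast formation.

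The marker means of 2 kinds of cell were well above the brightness filter on every array. Fibroblast and suture mesenchyme markers, 10 genes such as Col1a1 and Pdgfra, averaged 9.36 to 10.78 (log2) over the arrays. Macrophage markers, 16 genes such as Adgre1 and Cd68, averaged 7.10 to 9.10. Single genes could lie lower. The macrophage marker Cd163 was below the filter. The lowest mesenchymal gene read 3.57 in wild-type male cells with thyroxine at 7 days. The 4 neutrophil markers averaged at most 2.99, the 3 measured lymphocyte markers at most 3.62 and the 2 measured epithelial markers at most 3.84, means that lie under the filter of 3.905, although Cd3e passed it at 4.22. The 4 endothelial markers averaged 4.17 to 4.575, just above the filter, and Tek was below it. Of the 5 osteoblast markers measured, Sp7, Ibsp, Dmp1 and Phex were below the filter and Alpl, an alkaline phosphatase, passed it. The wild-type male culture stood apart: its mesenchymal markers averaged 9.46 at 3 days and 9.48 at 7 days, against 10.41 to 10.73 in the other cultures, and its macrophage markers were already at 8.71 at 3 days, against 7.11 to 7.68. Twist1 itself, at 3 and 7 days, averaged 7.58 and 7.165 in the female and 6.445 and 6.105 in the male wild-type culture, and 7.155 and 6.795 in the female and 7.235 and 7.385 in the male Twist1+/- culture. Twist1 RNA was therefore lower in mutant than in wild-type cells of the female cultures only, and, as the deleted part is not known, this level does not check the genotype labels.

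Over all cultures 4 genes in this axis were called by day. The receptors Csf1r and Tnfrsf11a and the transcription factor Nfatc1 rose, and the ligand Csf1 fell. Of 27 alternative fits, Csf1r and Csf1 kept their call in 27, Tnfrsf11a in 25 and Nfatc1 in 6. The wild-type male culture did not share the rise of the receptors, with Csf1r at 0.08 and Tnfrsf11a at -0.135. In the fit over all cultures 3 of 9 members were called higher and 1 lower at 7 than at 3 days, at an adjusted p under 0.05 (limma with Benjamini-Hochberg adjustment). Of all 13453 genes, 18.5% were called in that comparison, 1324 higher and 1169 lower.

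**Figure D1:**
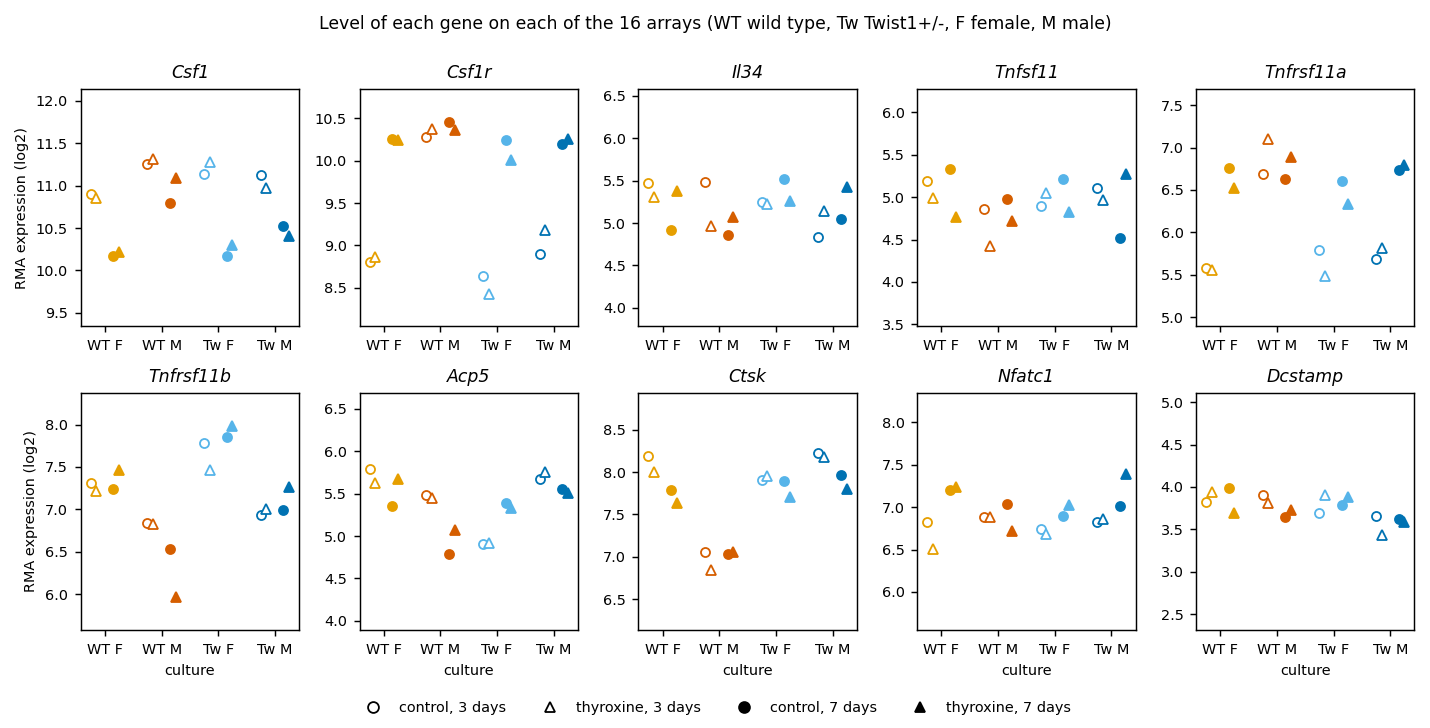
Array values (RMA, log2) of the 10 genes, with the culture on the x axis, circles for control medium, triangles for thyroxine, open symbols for 3 days and filled symbols for 7 days. All panels span the same number of log2 units; Csf1r and Tnfrsf11a were low at 3 days in every culture except the wild-type male one, and Ctsk was low in that culture at both times.

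Csf1 had a mean of 10.78 (log2) over the 16 arrays. In control and thyroxine medium it read 10.90 and 10.86 at 3 days and 10.17 and 10.22 at 7 days in wild-type female cells. Wild-type male cells gave 11.26 and 11.31, then 10.80 and 11.09. Twist1+/- female cells gave 11.14 and 11.28, then 10.17 and 10.30, and Twist1+/- male cells gave 11.13 and 10.97, then 10.52 and 10.41. The level was lower at 7 days in all 8 comparisons of the same culture and medium, by 0.22 to 0.98, although the 7 day values of wild-type male cells overlapped the 3 day values of wild-type female cells. Over all cultures Csf1 fell by 0.65 ± 0.09 (SE; log2; adjusted p = 0.000764, limma with Benjamini-Hochberg adjustment), a fold of 1.57. As means of both media, the differences were -0.685 for female and -0.34 for male wild-type cells, and -0.975 for female and -0.585 for male Twist1+/- cells.

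Csf1r, the receptor for that ligand, went the other way. At 3 days, control medium first, wild-type cells read 8.81 and 8.86 in the female and 10.28 and 10.38 in the male culture, and Twist1+/- cells 8.64 and 8.43 in the female and 8.90 and 9.18 in the male culture. At 7 days the same cultures gave 10.26 and 10.24, 10.46 and 10.36, 10.24 and 10.01, and 10.20 and 10.26. All 4 cultures thus lay between 10.01 and 10.46 at 7 days, while at 3 days the wild-type male arrays stood above the other 6 with no overlap. Over all cultures Csf1r rose by 1.07 ± 0.16 (SE; adjusted p = 0.000949, limma with Benjamini-Hochberg adjustment), a fold of 2.10. As means of both media the differences were 1.415 in the wild-type female, 1.59 in the Twist1+/- female and 1.19 in the Twist1+/- male culture, against 0.08 in the wild-type male one.

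Tnfrsf11a, the receptor for RANKL, was likewise highest at 3 days in wild-type male cells. Its 3 day values were 5.58 and 5.55 for the female and 6.69 and 7.10 for the male wild-type culture, and 5.79 and 5.48 for the female and 5.69 and 5.82 for the male Twist1+/- culture. Its 7 day values were 6.76 and 6.52, 6.63 and 6.89, 6.60 and 6.34, and 6.74 and 6.79 in the same order of cultures and media. The 3 cultures that started low all rose above their 3 day values in both media, and the wild-type male culture, high at 3 days, read lower at 7 days in both. Over all cultures Tnfrsf11a rose by 0.70 ± 0.16 (SE; adjusted p = 0.00921, limma with Benjamini-Hochberg adjustment). The call was lost without the Twist1+/- female culture (0.74, adjusted p = 0.0669) or the Twist1+/- male culture (0.65, adjusted p = 0.0805), and without the wild-type female culture the value was 0.39.

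Nfatc1, the transcription factor that RANK signalling switches on in osteoclast precursors and that many other cells also carry, read 6.51 to 6.89 at 3 days (median 6.825) and 6.72 to 7.39 at 7 days (median 7.035). It was higher at 7 days in 7 of the 8 comparisons of the same culture and medium, the exception being wild-type male cells with thyroxine, at 6.89 and then 6.72. The fitted rise was 0.29 ± 0.09 (SE; adjusted p = 0.0429, limma with Benjamini-Hochberg adjustment), a fold of 1.22. This call was lost when any 1 array other than the wild-type male thyroxine arrays was left out, with values of 0.21 to 0.33 and adjusted p of 0.0504 to 0.123 in the same fit. It was also lost without the brightness filter, the intensity trend or the culture block and with arrays centred on their median (adjusted p = 0.0504 to 0.0821), and without the wild-type female culture (0.15), the Twist1+/- female culture (0.32) or the Twist1+/- male culture (0.26).

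**Figure D2:**
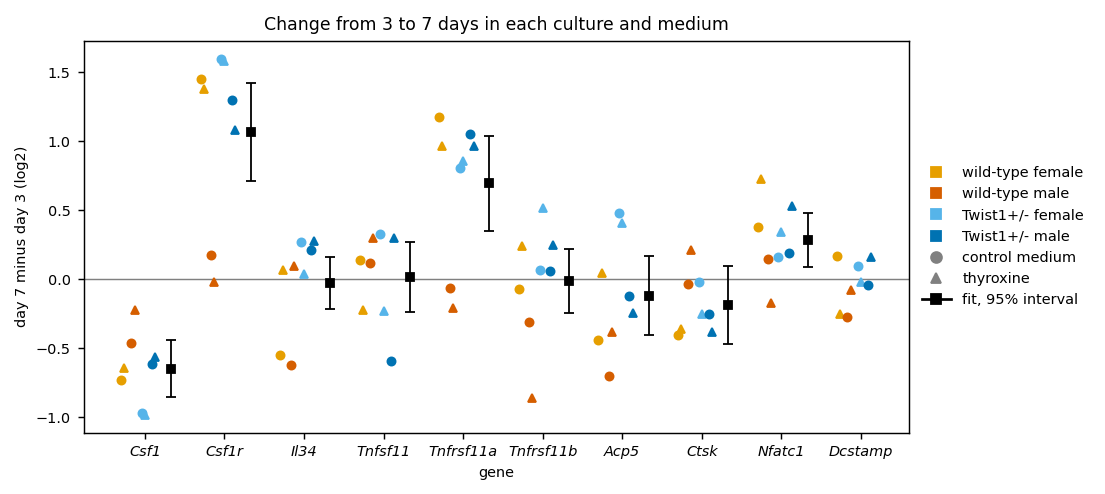
Difference between 7 and 3 days (log2) for each gene in each culture, circles for control medium and triangles for thyroxine, with the fitted difference and its 95% confidence interval in black. The wild-type male points of Csf1r and Tnfrsf11a lie near 0 while the other 6 points of each lie between 0.81 and 1.60; Dcstamp was below the filter and has no fit.

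The other 5 tested members did not pass the test for day. Il34, the second ligand of CSF1R, read 4.84 to 5.48 at 3 days and 4.86 to 5.52 at 7 days, and its fitted difference was -0.03 with a 95% interval from -0.21 to 0.16. Tnfsf11 read 4.42 to 5.19 and then 4.52 to 5.33, with a difference of 0.02 and an interval from -0.24 to 0.27. For both ligands the values of the 2 days overlapped almost fully. Tnfrsf11b gave a difference of -0.01 (interval -0.25 to 0.22), Acp5 of -0.12 (interval -0.40 to 0.17) and Ctsk of -0.185 (interval -0.47 to 0.10). Without the wild-type male culture Ctsk passed the test, at -0.30 (limma, adjusted p = 0.00626 by Benjamini-Hochberg), and in the other 3 cultures it was lower at 7 days in 6 of 6 comparisons. Dcstamp, a membrane protein needed for osteoclast fusion, read 3.43 to 3.94 at 3 days and 3.59 to 3.99 at 7 days, close to or under the filter of 3.905.

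Macrophage markers moved with Csf1r and Tnfrsf11a. Of the 15 macrophage markers tested, 15 rose from 3 to 7 days in the fit over all cultures, with a median of 1.26 against a median of -0.02 over all genes. Their mean went from 7.47 to 8.90 in wild-type female, from 7.11 to 8.725 in Twist1+/- female and from 7.68 to 8.93 in Twist1+/- male cells, but from 8.71 to 8.92 in wild-type male cells. The 10 mesenchymal markers had 0 calls by day, where 18.5% of all genes were called, with a median of -0.03. Alpl, the osteoblast marker that could be tested, fell by 0.40 (limma, adjusted p = 0.0436 by Benjamini-Hochberg), a call kept in 11 of 27 alternatives. The part of these cell types in the members' changes was not tested, and in bulk RNA more cells of a type and more RNA per cell cannot be told apart.

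**Figure D3:**
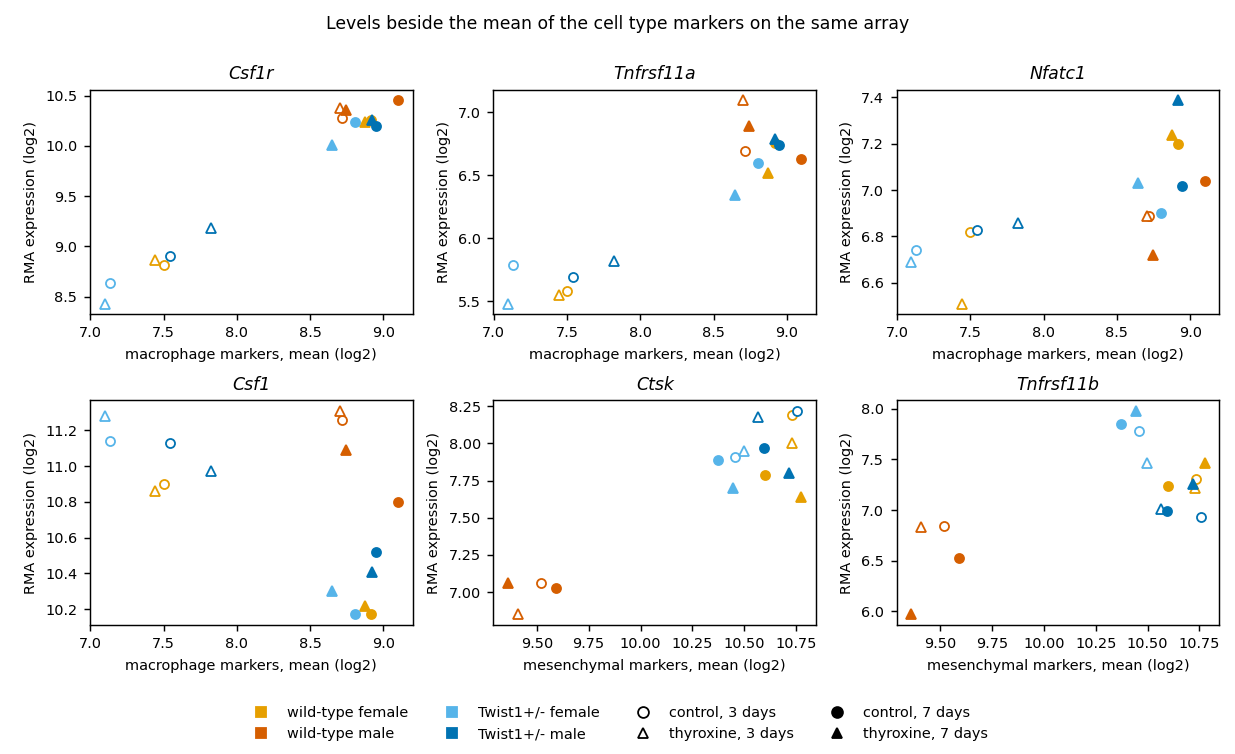
Levels (log2) of 6 of the genes on each of the 16 arrays against the mean of the macrophage markers (upper row and lower left panel) or the mesenchymal markers (the other two panels) on the same array, coloured by culture, with open symbols for 3 days and filled symbols for 7 days. Csf1r and Tnfrsf11a were low on the 6 arrays with a low macrophage mean, all from 3 days, and high on the other 10; the Ctsk and Tnfrsf11b panels show the 4 wild-type male arrays apart at a low mesenchymal mean.

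Over the 16 arrays Csf1r and Tnfrsf11a had a Pearson r of 0.961. The genes most like Csf1r among all tested were Trem2 (r = 0.995), Cd68 (r = 0.994) and Cd180 (r = 0.994), genes known from macrophages. Tnfrsf11a was most like Slc37a2 (r = 0.969), Rbm47 and Slc7a8. Csf1 was most like Actn1 (r = 0.974), an actin crosslinker, Pdcl3 and Dysf, and its r with Csf1r was -0.4565. The genes most like Nfatc1 were Acp2 (r = 0.918), a lysosomal acid phosphatase, Sp110 and S1pr1. For 3 other members the highest r was 0.769 for Il34 (with Suox), 0.77 for Tnfsf11 (with Dlx4) and 0.802 for Acp5 (with Rassf8). These points share 4 cultures and 2 days, so the correlations describe these arrays alone.

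The genes around the receptors were described in 3 groups. Of 18 tested genes of RANK and CSF1 receptor signalling, 11 were called higher by day and 0 lower. Above 0 were 14 and below it 4, with a median of 0.71. Of all genes 18.5% were called, and their median was -0.02. Trem2 rose by 1.49 and Tyrobp, the adaptor that TREM2 signals through, by 1.49, while Fcer1g, another signalling adaptor, rose by 1.16 and Spi1, which encodes the macrophage transcription factor PU.1, by 1.14. Of 14 tested genes of osteoclast fusion and resorption, 6 were called higher and 0 lower, against the same 18.5% of all genes. The list as a whole split into 7 genes above and 7 below 0, with a median of 0.03. Among those called were Sirpa (0.84), a receptor of macrophages, Tcirg1 (0.52), a subunit of the proton pump, and Snx10 (0.40). Cd47 (0.37), the ligand of SIRPA, was also called and kept its call in 14 of 27 alternatives. Of the 17 genes in this list, 3 were below the brightness filter, namely Atp6v0d2, Car2 and Calcr, which mark mature osteoclasts. The other 14 passed it, among them Ocstamp, Mmp9, Itgb3 and Clcn7. Of 17 tested stromal regulators of the osteoclast ligands, 4 were called higher and 3 lower, also against 18.5% of all genes, with a median of 0.03. Cxcl12, a chemokine, had the largest rise (0.76, limma, adjusted p = 0.0494 by Benjamini-Hochberg) but kept its call in 9 of 27 alternatives. Lifr (0.755) and Tgfb1 (0.74) also rose, and among those that fell was Sema3a at -0.71, which encodes a secreted inhibitor of osteoclast formation.

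The day difference was then taken within each genotype. In Twist1+/- cells 2 of 9 members were called higher and 1 lower at 7 days, where 14.6% of all genes were called. Csf1r rose by 1.39 ± 0.23 (SE; adjusted p = 0.0021), Tnfrsf11a rose by 0.92 ± 0.22 (adjusted p = 0.0164) and Csf1 fell by 0.78 ± 0.13 (adjusted p = 0.00252; all from limma with Benjamini-Hochberg adjustment). All 3 calls were lost when the Twist1+/- female culture was left out, which leaves only the male culture as Twist1+/-. The values were then 1.19 for Csf1r, 1.01 for Tnfrsf11a and -0.585 for Csf1. Tnfrsf11a was also lost without the Twist1+/- male culture (0.835). Over the alternatives of this comparison the genes called ran from 0 to 3017, so a lost call is not particular to these members. In addition Tnfrsf11a was lost without any 1 of 5 Twist1+/- arrays, with values of 0.79 to 0.95. Nfatc1, at 0.305, was called when either the wild-type female or the wild-type male culture was left out (adjusted p = 0.0276 and 0.0273).

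In wild-type cells 0 of 9 members were called, where 0.111% of all genes were called (15 genes, with 2212 at an unadjusted p under 0.05 in limma). The fitted differences were 0.75 for Csf1r (adjusted p = 0.136), 0.47 for Tnfrsf11a (0.322) and -0.51 for Csf1 (0.0974), and each averages a female and a male culture that differed. Without the wild-type male culture, only the female culture stands for wild type. The values were then 1.415 for Csf1r, 1.075 for Tnfrsf11a, 0.555 for Nfatc1, -0.685 for Csf1 and -0.38 for Ctsk. These members were called in that fit, but the calls rest on arrays of 1 culture. Over the alternatives of this comparison the genes called ran from 4 to 1623. Csf1 was also called without the wild-type male thyroxine array of 7 days (-0.64) and, at the same -0.51, with culture as a fixed block (limma, adjusted p = 0.0266 by Benjamini-Hochberg). The test of the genotype difference itself called 0 of 9 members, as it called 0% of all genes (0 genes, with 1174 at an unadjusted p under 0.05 in limma). Its estimate for Csf1r was 0.64 with a 95% interval from -0.07 to 1.35, so the size of any genotype difference in this gene was not resolved. Of the 9 members, 2 had an unadjusted p under 0.05 in limma, Il34 at 0.45 (interval 0.08 to 0.82) and Tnfrsf11b at 0.475 (interval 0.01 to 0.94). For Il34 the day difference was -0.25 in wild-type and 0.20 in Twist1+/- cells, neither called. The wild-type value averages media that differed. In the female and male culture it was -0.55 and -0.62 in control medium, but 0.07 and 0.10 with thyroxine. Leaving out the wild-type female culture leaves only the apart-standing male culture as wild type. The values were then 1.31 for Csf1r, 1.06 for Tnfrsf11a and 0.81 for Tnfrsf11b. These members were called in that fit, while over the alternatives of this comparison the genes called ran from 0 to 709.

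Between male and female cultures of wild-type cells, the receptors and Csf1 were higher, and the decoy receptor and the osteoclast markers Ctsk and Acp5 lower, in the male culture. That is 3 of 9 members called higher and 3 called lower (limma with Benjamini-Hochberg adjustment), where 26.7% of all genes were called. Each side of this test is 1 culture, so its p-values measure the spread between arrays only. Csf1r was higher by 0.83 ± 0.08 (SE; adjusted p = 1.48e-06), Tnfrsf11a by 0.725 ± 0.12 (adjusted p = 0.000242) and Csf1 by 0.58 ± 0.08 (adjusted p = 3.02e-05). For both receptors this was a difference at 3 days: Csf1r differed by 1.495 at 3 days and 0.16 at 7 days, and Tnfrsf11a by 1.33 and 0.12, with neither called at 7 days alone. Csf1 differed at both times and was called in all 23 alternatives run. Ctsk was lower by a difference of -0.905 ± 0.07 (adjusted p = 1.93e-07) and was likewise called in all 23.

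Ctsk, a collagen-cleaving protease of osteoclasts that fibroblasts also make, was split by culture. Wild-type male cells read 7.06 and 6.85 at 3 days and 7.03 and 7.06 at 7 days, control medium first. Wild-type female cells read 8.19 and 8.00, then 7.79 and 7.64, Twist1+/- female cells 7.91 and 7.95, then 7.89 and 7.70, and Twist1+/- male cells 8.22 and 8.18, then 7.97 and 7.80. The 4 wild-type male arrays lay below the other 12 with no overlap. The genes most like Ctsk were Sema3c (r = 0.977 over 16 arrays), Phf10 and Anxa8, and its r with Csf1r was -0.679. In the same comparison, where 26.7% of all genes were called, 10 of 10 mesenchymal markers were called lower in the male culture. Their median was -0.90 against 0.00 over all genes. Macrophage markers read higher for 15 of 15, with 11 called and a median of 0.67. The part of either list in the values of Ctsk and the receptors was not tested.

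Promoter windows are shown for Ctsk, Tnfrsf11a and Csf1, members called by day or by culture that had 1 start site in the table: Ctsk was low in the wild-type male culture, where Tnfrsf11a was already high at 3 days. Each window is the 250 bases before the start site of the gene (RefSeq, GRCm38.p6; the table held 5 of the 10 members), read 5′ to 3′ on the strand of the gene, with capitals for matches to the motifs searched. For Ctsk the window is chr3:95498960-95499209 on the plus strand, for Tnfrsf11a chr1:105780473-105780722 on the plus strand and for Csf1 chr3:107760470-107760719 on the minus strand. The annotated Tnfrsf11a gene begins at base 105780673, before the start site used, so the end of its window lies inside the gene.
Ctsk: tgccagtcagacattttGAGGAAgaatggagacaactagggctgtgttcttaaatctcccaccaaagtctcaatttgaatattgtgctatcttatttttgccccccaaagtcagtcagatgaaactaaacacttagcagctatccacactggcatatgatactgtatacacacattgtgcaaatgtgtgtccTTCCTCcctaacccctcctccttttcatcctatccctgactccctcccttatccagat
Tnfrsf11a: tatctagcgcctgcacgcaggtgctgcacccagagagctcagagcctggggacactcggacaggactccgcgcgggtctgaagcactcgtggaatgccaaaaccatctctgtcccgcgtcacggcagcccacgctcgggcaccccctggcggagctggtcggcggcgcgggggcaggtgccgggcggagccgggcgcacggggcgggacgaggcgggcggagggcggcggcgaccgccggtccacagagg
Csf1: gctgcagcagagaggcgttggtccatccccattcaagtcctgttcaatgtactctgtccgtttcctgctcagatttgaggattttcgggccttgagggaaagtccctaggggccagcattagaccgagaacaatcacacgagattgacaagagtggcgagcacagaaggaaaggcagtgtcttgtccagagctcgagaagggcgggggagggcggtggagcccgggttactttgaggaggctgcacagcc
The motifs were GAGGAA, the core read by PU.1, TGACTCA, read by AP-1, and CATGTG and CACGTG, E-boxes read by MITF, each on both strands, and no 2 matches overlapped. The Ctsk window held GAGGAA at 2 places, at bases -233 to -228 on the strand of the gene and at -58 to -53 on the other strand, where the capitals read as its reverse complement. GAGGAA occurs in 23.3% of all 32851 promoter windows of this length, TGACTCA in 4.46%, CATGTG in 12.3% and CACGTG in 6.02%. The Tnfrsf11a and Csf1 windows had 0 matches, which says only that these letters are not in these windows. Of the members not shown, the window of Tnfsf11 and those of the first and second start of Acp5 had 0 matches, and that of the third start of Acp5 held CATGTG at -90 to -85 on the other strand.

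Tnfrsf11b, the decoy receptor, was lower in the male than in the female culture of both genotypes. Female cells read 7.31, 7.22, 7.24 and 7.46 in wild type and 7.78, 7.46, 7.85 and 7.98 in Twist1+/-, in the order control and thyroxine at 3 days, then at 7 days. Male cells read 6.84, 6.83, 6.53 and 5.97 in wild type and 6.93, 7.01, 6.99 and 7.26 in Twist1+/-. Within each genotype the 4 male arrays did not overlap the 4 female arrays. The male minus female difference was -0.765 ± 0.12 in wild-type cells (SE; adjusted p = 0.00014) and -0.72 ± 0.12 in Twist1+/- cells (adjusted p = 0.00451, both limma with Benjamini-Hochberg adjustment). Taken at 3 days alone neither difference passed, at -0.43 (adjusted p = 0.0873) and -0.65 (adjusted p = 0.0938), and at 7 days alone the Twist1+/- one was -0.79 (adjusted p = 0.054). The genes most like it were Timp3 (r = 0.967 over 16 arrays), an inhibitor of matrix proteases, Reck and Foxd1.

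Acp5, the tartrate-resistant acid phosphatase used as an osteoclast stain, differed between the cultures in opposite directions. It read 5.79, 5.62, 5.35 and 5.67 in wild-type female and 5.49, 5.45, 4.79 and 5.07 in wild-type male cells. Twist1+/- female cells gave 4.91, 4.92, 5.39 and 5.33, and Twist1+/- male cells 5.67, 5.75, 5.55 and 5.51. The male minus female difference was -0.41 ± 0.11 in wild-type cells (SE; limma, adjusted p = 0.0108 by Benjamini-Hochberg) and 0.48 ± 0.11 in Twist1+/- cells (adjusted p = 0.0299). The wild-type call was lost without the female control array of 3 days (-0.35), the female thyroxine array of 7 days (-0.33) or the male control array of 7 days (-0.34), and at 3 days alone the difference was -0.235. The Twist1+/- call was lost without any 1 of the 8 Twist1+/- arrays, with values of 0.45 to 0.51 and adjusted p of 0.0541 to 0.129, and with arrays centred on the median of the tested genes. By day, the Twist1+/- difference was 0.795 at 3 days and 0.17 at 7 days.

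In Twist1+/- cells 1 of 9 members was thus called higher and 1 called lower in the male culture, where 2.22% of all genes were called. Csf1r was at 0.305 ± 0.08 (limma, adjusted p = 0.0653 by Benjamini-Hochberg) and was called without the male control array of 3 days (0.39), while Csf1 was at 0.035 ± 0.08. Macrophage markers read higher in the male culture for 15 of 15, with 5 called and a median of 0.345. Mesenchymal markers read higher for 9 of 10, with 2 called and a median of 0.12.

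The difference between the genotypes in this male minus female value was tested as well, and 5 of 9 members were called, 3 above 0 and 2 below, where 18.7% of all genes were called. The wild-type value minus the Twist1+/- value was -1.085 ± 0.10 for Ctsk (SE; adjusted p = 2.31e-06), -0.89 ± 0.15 for Acp5 (adjusted p = 0.000659), 0.54 ± 0.11 for Csf1 (adjusted p = 0.00193), 0.52 ± 0.12 for Csf1r (adjusted p = 0.0044) and 0.52 ± 0.17 for Tnfrsf11a (adjusted p = 0.0416; all limma with Benjamini-Hochberg adjustment). For Tnfrsf11b the value was -0.045, with a 95% interval from -0.40 to 0.31. The values for the receptors came from 3 days, where Csf1r gave 0.99 and Tnfrsf11a 1.21, against 0.055 and -0.175 at 7 days. The Tnfrsf11a call was lost without any 1 of 10 arrays, with values of 0.40 to 0.53, and without the brightness filter or the intensity trend. With 1 culture for each genotype and sex, an effect of either and a difference between these 4 cultures cannot be told apart.

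Between genotypes in control medium, 0 of 9 members were called, and 0% of all genes were called (limma with Benjamini-Hochberg adjustment; 639 genes had an unadjusted p under 0.05). With sex and day matched, Tnfrsf11b read higher in Twist1+/- than in wild-type cells 4 of 4 times, by 0.09 to 0.61, with a fitted difference of 0.41 ± 0.19 and an adjusted p of 0.889. Ctsk had a fitted difference of 0.48 with a 95% interval from -0.02 to 0.98, and Csf1r one of -0.46 with an interval from -1.07 to 0.16. Over the 27 alternatives Ctsk kept its sign in 25 and ran from -0.08 to 1.04, while Csf1r ran from -0.82 to -0.10. Without the wild-type female culture Ctsk (1.04) and Csf1r (-0.72) were called, and without the Twist1+/- female culture Ctsk was called (1.03), so both turned on which culture stood for a genotype. Macrophage markers were lower in Twist1+/- cells for 15 of 15 with a median of -0.55, and mesenchymal markers were higher for 9 of 10 with a median of 0.46, against 0.04 over all genes. None of either list was called (limma; 0 of 15 and 0 of 10), and their part in the Csf1r and Ctsk values was not tested.

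Thyroxine moved no member past the test. Over the 8 pairs, each a thyroxine array and its control array from 1 culture and day, 0 of 9 members were called and 0 had an unadjusted p under 0.05, where 0.0966% of all genes were called (13 genes, with 825 at an unadjusted p under 0.05 in limma). In wild-type cells 0 of 9 members were called against 0.0149% of all genes, in Twist1+/- cells 0 of 9 against 0.201%, and for the difference between the genotypes 0 of 9 against 0.0595%.

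**Figure D4:**
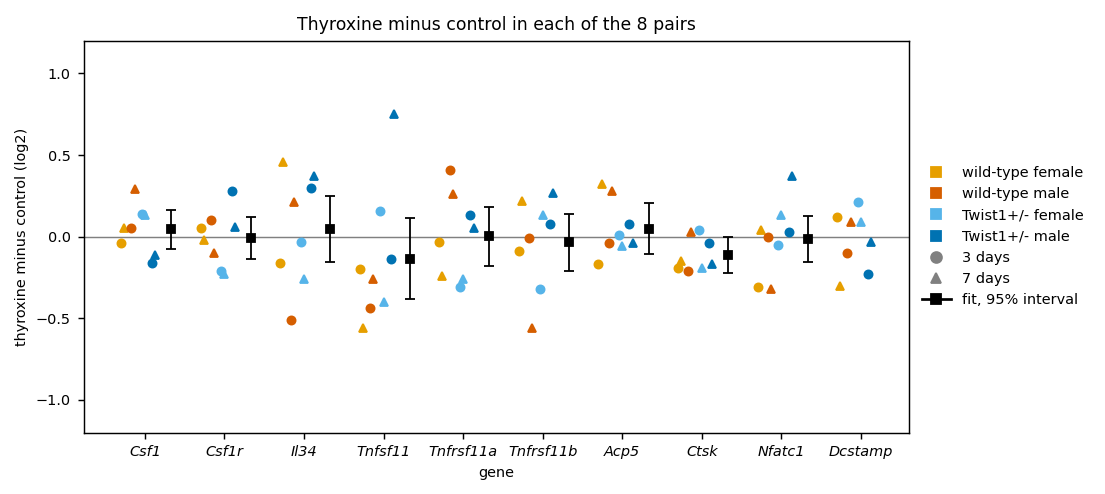
Thyroxine minus control (log2) for each gene in each of the 8 pairs, circles for 3 days and triangles for 7 days, with the fitted difference over all pairs and its 95% confidence interval in black. Every interval includes 0, and the points of Tnfsf11 spread the widest, from -0.56 to 0.75.

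The intervals bound what these arrays could show. Csf1 had a fitted difference of 0.04 with a 95% interval from -0.07 to 0.16, and Csf1r of -0.01 with an interval from -0.14 to 0.12. Tnfrsf11a was at 0.00 (interval -0.18 to 0.18), Nfatc1 at -0.01 (interval -0.16 to 0.13) and Tnfrsf11b at -0.035 (interval -0.21 to 0.14). Ctsk was lower with thyroxine in 6 of 8 pairs, at -0.11 with an interval from -0.22 to 0.00. Tnfsf11 had the widest interval, from -0.38 to 0.11 around -0.14.

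Tnfsf11 was the only member with an unadjusted p under 0.05 for thyroxine in any of the 4 thyroxine tests, and it missed the adjusted threshold. In wild-type cells it was lower with thyroxine in 4 of 4 pairs, from 5.19 to 4.99 and from 5.33 to 4.77 in female cells and from 4.86 to 4.42 and from 4.98 to 4.72 in male cells, at 3 and 7 days. The fitted difference was -0.365 ± 0.16 (SE; adjusted p = 0.887, limma with Benjamini-Hochberg adjustment). In Twist1+/- cells the pairs went from 4.89 to 5.05 and from 5.22 to 4.82 in female cells and from 5.11 to 4.97 and from 4.52 to 5.27 in male cells, so 2 of 4 were higher. Taken against its decoy, the Tnfsf11 change minus the Tnfrsf11b change with thyroxine was -0.11, -0.78, -0.43 and 0.30 in the wild-type pairs and 0.48, -0.53, -0.22 and 0.48 in the Twist1+/- pairs, with no common direction. Il6, a cytokine among the 17 stromal regulators tested, was the 1 gene of that list called with thyroxine, at -0.57 over all pairs (limma, adjusted p = 0.00799 by Benjamini-Hochberg) and -0.74 in wild-type cells (adjusted p = 0.0436). The call over all pairs was kept in 10 of 18 alternatives and that in wild-type cells in 7 of 18. Both were lost without the pair block, without the intensity trend, without the 3 day pair of either wild-type culture, without the 7 day pair of Twist1+/- female cells, and without the Twist1+/- female culture or either wild-type culture. Over all 18 alternatives its values ran from -0.66 to -0.47 over all pairs and from -0.93 to -0.555 in wild-type cells. The wild-type call was also lost without the brightness filter and without the 7 day pair of either male culture.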

How the data were processed

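The deposited values are log2 expression per probe set on 16 arrays. The submitters' processing notes name RMA and Affymetrix Expression Console, without versions, and the genome build was not given in the sources used here either. RMA sets all arrays to 1 distribution, so a shift of all genes could not be seen, and differences near the background are compressed. The labels do not say whether the 3 wells behind an array were pooled. Of 41345 probe sets, 23521 had 1 gene symbol, and the brightest of a gene was used. Genes above the 40th percentile (log2 3.905) were tested with limma 3.58.1 and statmod 1.5.0 in R 4.3.3 (two-sided, intensity trend, Benjamini-Hochberg at 0.05). The functions were tested on simulated data.

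In the thyroxine tests each thyroxine array and its control formed a pair, entered as a fixed block, because the labels put both media of a culture and day on a plate. Male minus female differences of the 2 media correlated across genes at 0.771 and 0.721 in wild-type and 0.119 and 0.393 in Twist1+/- cells at 3 and 7 days. Day and genotype were fitted to the group means and sex, with culture as a random block (within-culture correlation 0.202). Male and female cultures were compared over their 4 arrays each, without a term for culture, so p there measures the spread between arrays only. The naming rule took every member, the 3 genes most like each tested member, and, of the genes called in a list, up to 4 with the largest differences, from which examples are given. Members and lists were chosen with earlier results of these data known.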

Additional observations from a re-analysis of the deposited data

Results flagged for a closer look

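Of 40 checks for an array far from the others of its culture, 2 stood out, and of 10 checks for a pair far from the others in its thyroxine difference 0 did, where chance gives about 1 in 20 groups. Il34 in control medium at 7 days read 5.52 in Twist1+/- female cells, above the other 3 arrays of that culture, which lay between 5.22 and 5.26. Ctsk with thyroxine at 3 days read 6.85 in wild-type male cells, below the other 3 arrays of that culture, which lay between 7.03 and 7.06.

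The male minus female difference of 5 members differed between wild-type and Twist1+/- cells in a direct test (limma with Benjamini-Hochberg adjustment). The wild-type value minus the Twist1+/- value was -0.89 for Acp5, 0.5425 for Csf1, 0.5225 for Csf1r, -1.085 for Ctsk and 0.5175 for Tnfrsf11a. With 1 culture for each genotype and sex, culture, sex and genotype cannot be told apart in these values.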

How the results depend on the processing

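Thyroxine called 0 members in each of the 18 alternatives run for each of the 4 thyroxine tests, including the fit without the pair block. Over those alternatives the genes called ran from 0 to 29 over all pairs, 0 to 9 in wild-type cells, 0 to 232 in Twist1+/- cells and 0 to 202 for the genotype difference. For day over all cultures the count of members called was 3 to 4 under other settings and 2 to 5 with a culture or an array left out, 2 without either Twist1+/- culture and 5 without the wild-type male culture (genes called 1197 to 3509), and Csf1r and Csf1 were called in 27 of 27. For day in wild-type cells it was 1 with culture as a fixed block (Csf1, adjusted p = 0.0266, limma) and 0 to 5 on leaving samples out (genes called 4 to 1623), in Twist1+/- cells 0 to 4 (0 to 3017), for the genotype difference in day 0 to 3 (0 to 709) and for genotype 0 to 2 (0 to 1777). The cultures behind these ranges of members are named in the account of each comparison. For male minus female cultures, the count was 5 to 6 in wild-type cells on leaving arrays out and 4 at 3 days only and at 7 days only (1949 to 3753 genes called). In Twist1+/- cells it was 1 to 2 on leaving arrays out, 1 with arrays centred on the median, 1 at 3 days only and 0 at 7 days only (59 to 387 genes). For wild type minus Twist1+/- it was 4 to 5 on leaving arrays out and 3 at 7 days only (1291 to 2733 genes), where Tnfrsf11a reversed to -0.175. Of 1972 alternatives of member values that were not called, 165 had the opposite sign. With 4 cultures, 1 for each genotype and sex, no alternative measures the spread between animals, and probe sets near the background have compressed differences.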
